A study of Mus musculus with 4 samples.

Results

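Mature luminal (ML) cells of the mouse mammary epithelium were described in single-cell RNA profiles of pubertal and adult glands. A cell was taken as ML when it held a count of at least 3 of 6 mature luminal genes (M genes: Stc2, Upk3a, Plac8, Tspan1, Prlr and Cited1), of at most 1 of 5 luminal progenitor genes (L genes: Cd14, Lalba, Plb1, Atp6v1b1 and Aldh1a3) and of at most 2 of 7 basal genes (B genes: Krt5, Krt17, Acta2, Myl9, Tagln, Mylk and Cnn1). This rule found 3409 ML cells among 10596 cell barcodes. They were compared with 3527 remaining cells that also had at most 2 B genes, and with 3563 cells that had at least 4 B genes, called basal cells here.

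All cells came from female mice of the FVB/NJ strain, with no transgene or treatment named in the labels. The pubertal library was made from 5-week-old mice, and the adult libraries from 10-week-old mice in estrus or diestrus, phases of the ovarian cycle. Total epithelium was sorted as cells that carried CD24 and lacked markers of blood and endothelial cells, and adult glands from a pair of mice were pooled for each phase. Each stage thus had 1 library. A difference between stages cannot be told apart from a difference between libraries, and no p-value is given.

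The ductal epithelium of the mammary gland has an outer basal layer of contractile myoepithelial cells and an inner luminal layer. Within the luminal layer, ML cells are the hormone-sensing cells: they carry the receptors for estrogen and progesterone and pass the ovarian signal to neighbouring cells through secreted factors such as amphiregulin, RANK ligand and WNT4. Luminal progenitors (LP) mostly lack these receptors and can form the milk-producing alveolar cells of pregnancy.

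ML cells made up 2031 of 5428 barcodes in puberty (37.4%, exact 95% interval 36.1 to 38.7%), 748 of 2729 in estrus (27.4%, 25.7 to 29.1%) and 630 of 2439 in diestrus (25.8%, 24.1 to 27.6%). The interval of puberty lay above those of both adult libraries, which overlapped each other. Each cell was then thinned to 2000 molecules, and cells with fewer counts were left out, which kept 4831, 2209 and 2106 barcodes. Of these, the ML shares were 36.5%, 30.5% (28.6 to 32.5%) and 24.6% (22.8 to 26.5%), and the adult intervals no longer overlapped. In estrus 692 of 748 ML and 975 of 1324 basal cells were kept, and in diestrus 590 of 630 and 884 of 1068. The thinned shares thus rest on a different set of cells, with basal cells lost more often. Intervals in the text are exact (Clopper-Pearson) and cover counting error only, without the differences between animals. The libraries held 25365324, 10962454 and 11868593 counts. ML cells had a median of 4772 counts and 1472 genes at puberty, 4207 counts and 1655.5 genes for estrus, and 4458 counts and 1652 genes for diestrus. Their median total was 1.29 to 1.63 times that of the basal cells of the same library. A second deposited pubertal table shared 5387 barcodes with the first and was kept out. It gave 1945 ML cells, 1888 of them ML in both tables. The other pairs of libraries shared 13 to 24 barcodes.

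**Figure D1:**
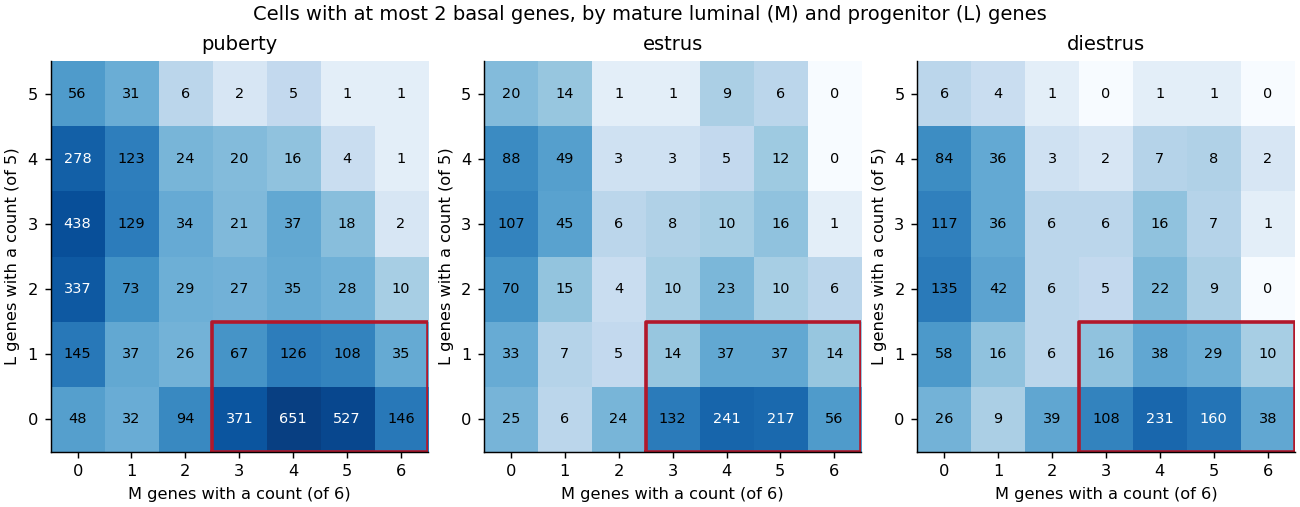
Cells with at most 2 B genes in each library, counted by the number of M genes (horizontal, 0 to 6) and L genes (vertical, 0 to 5) with at least 1 count; darker blue marks more cells, and the red box holds the ML cells. Most ML cells sat in the bottom row, with no L gene, and a second crowd of cells lay on the left, with few M genes and several L genes.

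The 6 M genes were not equally frequent among ML cells. Cited1, a transcriptional coregulator of the estrogen response, had a count in 94.2% of pubertal, 99.3% of estrus and 96.7% of diestrus ML cells. Prlr, the prolactin receptor, was found in 93.8%, 98.4% and 95.2%, and Stc2, a secreted glycoprotein hormone, in 92.0%, 85.4% and 90.2%. Tspan1, a tetraspanin, followed with 65.8%, 74.7% and 61.1%, and Plac8 with 46.9%, 46.3% and 58.4%. Upk3a, a uroplakin of the urothelial plaque, was the least frequent, with 34.8%, 29.0% and 24%. These shares describe the choice of cells. When cells were instead chosen by 3 of the other 5 M genes, the gene left out was seen in nearly the same share, for example 33.4%, 28.2% and 22.5% for Upk3a and 92.9%, 99.2% and 95.9% for Cited1. Cells chosen this way are all ML cells by the full rule, for Upk3a 1989 of the 2031 in puberty. The shares thus rest largely on the same cells and are no independent support.

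The borders of the rule were examined with the summed level of 12 known ML markers that the rule did not use, as CPM (counts divided by the total and multiplied by 1000000). Cells just inside, with 3 M genes, held 17758 CPM in puberty, 20036 in estrus and 17735 in diestrus. Most of this sum came from Ptn (9366, 13520 and 11414 CPM) and Ly6d (4896, 4961 and 3258 CPM). Cells just outside, with 2 M genes and the same limits on L and B genes, held 16323, 16524 and 17313 CPM. There were 120, 29 and 45 such cells, with lower median totals (2470, 2192 and 1947 counts) than cells with 3 M genes (3459, 3155.5 and 3541.5). Their summed level of LP markers outside the rule was 4523, 3407 and 479 CPM, against 1522, 747 and 614 at 3 M genes. At 1 M gene the level was 4350, 1786 and 1833 CPM. On the other side, 228, 120 and 87 cells had at least 3 M genes but also at least 2 L genes, and had high median totals of 7053.5, 6193 and 7336 counts. They are counted among the remaining cells, of which 78.5 to 84.4% had at least 2 L genes.

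For levels, the counts of all cells of a class in a library were added up and scaled to CPM by the trimmed mean of M-values (TMM) method. The log2 ratio of ML cells to the remaining cells, or to basal cells, was taken in each library with 1 CPM added, and its mean ± SD over the 3 libraries (n = 3, each a different stage) is given. A gene was called when the ratio was at least 2-fold in the same direction in every library. Among 9046 genes tested outside the rule, 3.64% were called higher and 7.2% lower in ML than in remaining cells, and 8.42% were called higher and 11.1% lower than in basal cells. Since the cells were chosen by their expression, these ratios are descriptions. Of the 329 genes called higher than in remaining cells, 223 (67.8%) were also higher than in basal cells, where they made up 29.3% of those called.

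The label was also compared with markers outside the rule, in lists chosen with earlier results of these data known. Of 12 known ML markers, 11 were called higher in ML than in remaining cells, with a median log2 ratio of 2.06 against 0.03 over all genes tested, and 11 were higher than in basal cells (median 3.40 against -0.01). The exception was Tnfsf11. All 12 LP markers were called lower than in remaining cells (median -6.04), and all 10 basal markers lower than in basal cells (median -7.23). The rule itself limits L and B genes in ML cells, so these low levels describe the choice of cells and are not independent support. Of the 5 markers each of immune, endothelial and fibroblast cells, no ML cell of puberty or estrus held 3 from the same list, and 1 ML cell of diestrus held 3 or more fibroblast markers.

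The receptors for the ovarian hormones were higher in ML cells. Esr1, the estrogen receptor α (mm10 chr10:4611593-5005614), stood at 26.7 CPM in puberty, 23.3 in estrus and 22.4 in diestrus, and its log2 ratio was 1.38 ± 0.26 to remaining cells and 2.80 ± 0.25 to basal cells. Pgr, the progesterone receptor (chr9:8899833-8968611), stood at 53.2 CPM in puberty, 21.2 in estrus and 32.9 in diestrus. Its log2 ratios were 2.04 ± 0.24 and 2.62 ± 0.38. Esr1 was thus almost level over the stages, while Pgr was highest in puberty and lowest in estrus (log2 ratio 1.29).

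Few ML cells showed a count of either receptor. Esr1 had a count in 9.65% of pubertal ML cells (8.40 to 11%), 11.6% of those from estrus (9.42 to 14.1%) and 11% of those from diestrus (8.62 to 13.7%), against 2.95%, 3.74% and 3.07% of remaining cells and 1.11%, 0.982% and 0.843% of basal cells. Pgr was detected in 17.5% (15.9 to 19.3%), 10.2% (8.09 to 12.6%) and 15.2% (12.5 to 18.3%) of ML cells, and in 1.36 to 1.88% of basal cells. At 2000 molecules per cell the ML shares were 4.15%, 5.06% and 4.58% for Esr1 and 8.86%, 4.34% and 7.29% for Pgr. A cell without a count may still hold the transcript. Pgr was found in 18.9%, 10.3% and 15.9% of ML cells with an Esr1 count and in 17.4%, 10.1% and 15.2% of those without. In each library the interval of the cells with Esr1 held the share of those without, as in puberty (13.7 to 25.1%).

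Some other hormone receptors went the opposite way. Of 18 hormone receptor genes, 12 passed the filter on low values, and 2 were called higher and 5 lower in ML than in remaining cells. Nr3c1, the glucocorticoid receptor, had a log2 ratio of -2.31 ± 0.35, Ghr, the growth hormone receptor, -1.74 ± 0.53, Igf1r, the receptor for insulin-like growth factor 1, -2.54 ± 0.24, and Vdr, the vitamin D receptor, -2.21 ± 0.57. These were also lower than in basal cells, at -2.33 ± 0.29, -1.88 ± 0.91, -3.37 ± 0.26 and -2.15 ± 0.58. The fifth, Oxtr, the oxytocin receptor of contractile cells, had no count in ML cells of puberty. Esr2 and Calcr had no count in any class. Thra, Rara, Rarg and Esrra had mean ratios within 0.25 of 0.

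Of 13 coregulators and chaperones of nuclear receptors, none was called higher and 2 were called lower than in remaining cells. The shares over all genes tested were 3.64% and 7.2%, so these counts do not set the list apart. Cited2 had a log2 ratio to remaining cells of -3.0 ± 0.89 and Ncoa7, a receptor coactivator, one of -2.67 ± 0.26. Cited4 was higher than in basal cells (3.26 ± 0.69). Of 16 genes of the response to estrogen and progesterone, 15 passed the filter. In ML cells 4 were higher than in remaining cells (Areg, Pgr, Myb and Wnt4) and 2 were lower, Igfbp4 at -2.34 ± 0.34 and Cyp1b1 at -2.14 ± 1.10.

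Luminal transcription factors divided ML from remaining cells. Of 19 such genes, 18 passed the filter, with 4 called higher and 5 lower. Foxa1, the pioneer factor of estrogen receptor binding (chr12:57540628-57546916), stood at 51.9 CPM in puberty, 77.6 in estrus and 56.8 in diestrus, with a log2 ratio of 2.16 ± 0.31 to remaining and 3.65 ± 0.62 to basal cells. Myb (2.12 ± 0.53), the T-box factor Tbx3 (1.90 ± 0.42) and Batf (1.46 ± 0.35) were the other factors called higher. Elf5, the alveolar fate factor of LP cells, was lower at -5.45 ± 0.65, and so were its relative Ehf at -3.54 ± 0.28, the Notch target Hey1 at -5.50 ± 0.25, Tfap2c at -2.92 ± 0.13 and Klf5 at -1.70 ± 0.06. Gata3, which is needed by both luminal lineages, had a ratio of 0.35 ± 0.42 and was not called, and neither was Grhl2 at 0.05 ± 0.32. Gata3 had a count in 28.0% of pubertal, 59.4% of estrus and 51.7% of diestrus ML cells, compared with 2.76%, 1.47% and 2.70% for Elf5.

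**Figure D2:**
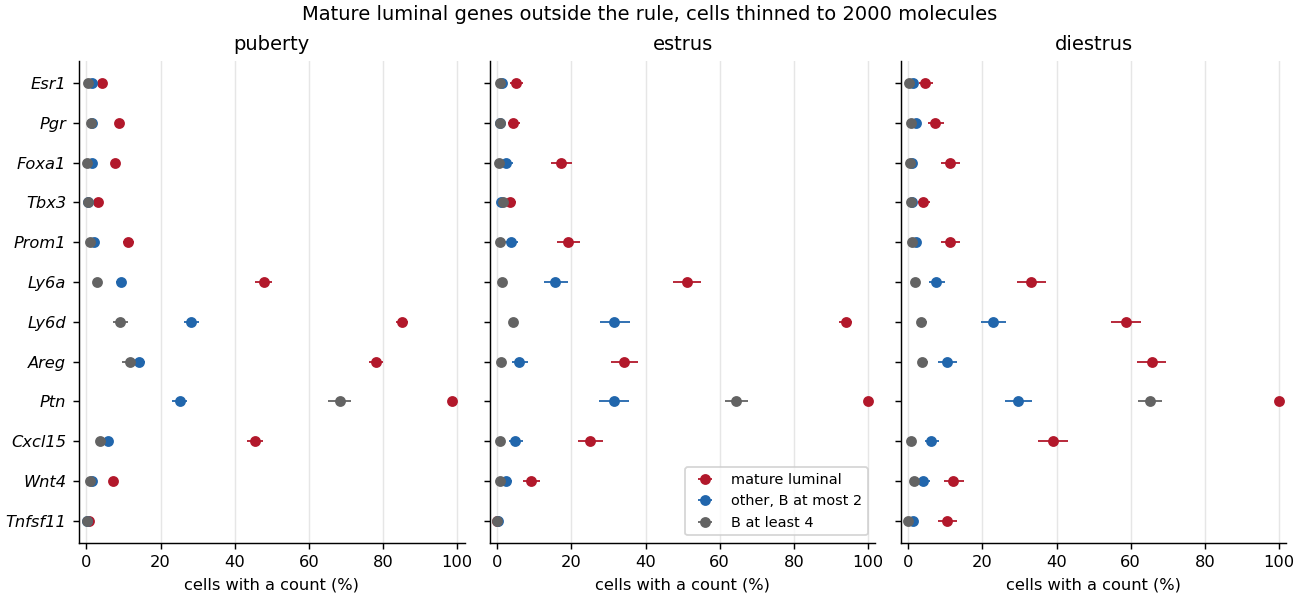
Share of cells with at least 1 count (horizontal, percent) of 12 ML markers outside the rule, with each cell thinned to 2000 molecules and bars for exact 95% intervals; red points are ML cells, blue the remaining cells with at most 2 B genes and gray the basal cells. The red points lay farthest to the right for every gene except Tnfsf11 in estrus; Ptn was found in nearly all ML cells of each library, and Esr1, Pgr and Tbx3 stayed below 10% of ML cells.

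Secreted signals are the means by which ML cells reach their neighbours. Of 25 signal genes, 18 passed the filter, with 6 called higher and 6 lower than in remaining cells, and 7 higher and 5 lower than in basal cells. Areg, the EGF family ligand amphiregulin that carries the estrogen signal in ductal growth, stood at 3324 CPM in ML cells of puberty, 611 in estrus and 1861 in diestrus, with log2 ratios of 2.97 ± 0.19 and 4.59 ± 0.97. It was detected in 83.2% (81.5 to 84.8%), 43.9% (40.3 to 47.5%) and 71.3% (67.6 to 74.8%) of ML cells, with no overlap of intervals between libraries. These intervals leave out the differences between animals, and each stage had 1 library. In basal cells the share was 14.5%, 2.04% and 5.43%. Ptn, the growth factor pleiotrophin, varied least, at 9459, 10033 and 9667 CPM, and was found in 99.2% to 100% of ML cells.

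The Wnt ligands Wnt4 and Wnt5a were also called higher. Wnt4, a ligand induced by progesterone, stood at 42.2, 40.6 and 64.9 CPM in puberty, estrus and diestrus (log2 ratio 1.53 ± 0.12 to remaining cells). Wnt5a went from 130 CPM in puberty to 81.7 in estrus and 49.0 in diestrus (2.36 ± 0.30). The chemokine Cxcl15 was at 453, 116 and 281 CPM (2.32 ± 0.56), and Fgf1 at 5.61, 5.84 and 8.07 CPM (1.37 ± 0.26). Btc, another EGF family ligand, and Wnt7b were higher than in basal cells, at 3.23 ± 0.32 and 3.09 ± 0.28, and were not called against remaining cells, with ratios of 0.54 ± 0.75 and 0.93 ± 0.34.

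The other 6 called signals were lower in ML than in remaining cells. The chemokine Cxcl2 had a log2 ratio of -6.04 ± 0.85, Cxcl1 -5.29 ± 0.82, Csf3, a granulocyte growth factor, -4.34 ± 0.27, and Tgfb2 -4.54 ± 0.55. Hbegf, an EGF family ligand, was also lower (-2.62 ± 0.56), and Rspo1, an R-spondin that amplifies Wnt signals, had no count in ML cells of puberty and estrus and stood at 2.69 CPM in diestrus, against 149 CPM in remaining cells.

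Tnfsf11 (RANK ligand) and Calca (calcitonin and its related peptide CGRP, which share the gene and cannot be told apart by these counts) were seen mainly or only in diestrus. Tnfsf11 stood at 4.08 CPM in ML cells of puberty, at 0 in estrus and at 81.0 in diestrus, from 40, 0 and 271 counts. It was detected in 1.23% (0.798 to 1.81%), 0 of 748 cells, which allows a share of up to 0.401% (3 cells of the total), and 18.7% (15.8 to 22.0%). Calca had no count in 2031 ML cells of puberty (up to 0.148% by the same floor) or in 748 of estrus, and stood at 339 CPM in diestrus from 1135 counts in 139 cells (22.1%, 18.9 to 25.5%). Against a floor of 3 counts over the class, diestrus was at least 111-fold higher than estrus for Tnfsf11 and at least 465-fold higher for Calca. In the same library, Calca was found in 3.35% of remaining cells and 1.12% of basal cells, and Tnfsf11 in 3.07% and 0.281%.

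Within the diestrus ML cells these signals were found together. Tnfsf11 was present in 65 of 139 cells with Calca (46.8%, 38.3 to 55.4%) and in 53 of 491 without (10.8%). At 2000 molecules per cell the shares were 25.7% and 7.36%. Tnfsf11 was found in 26.1% of ML cells with Areg and in 1 of 181 without (0.553%), or 15.2% and 1.49% after thinning. For Pgr the shares were 18.75% of ML cells with a count and 18.7% of those without, or 4.65% (2 of 43 cells, 0.568 to 15.8%) and 11% after thinning, with overlapping intervals. In all, 30.5% of diestrus ML cells had a count of Tnfsf11 or Calca.

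**Figure D3:**
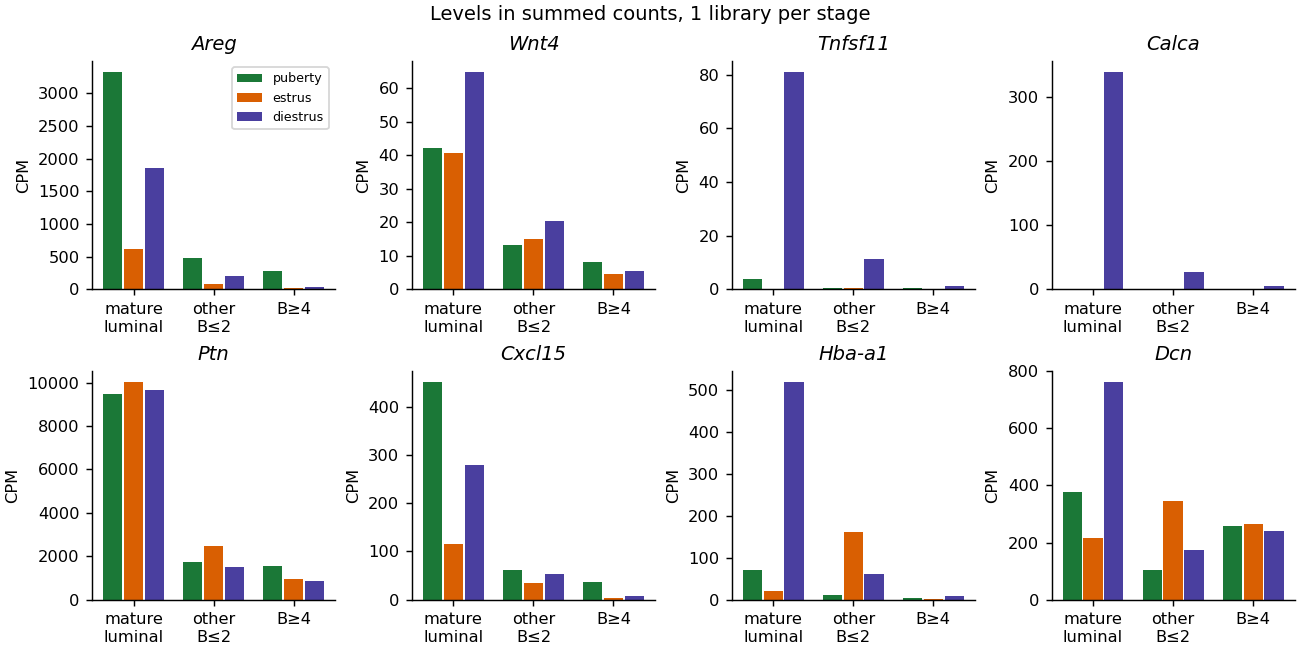
Levels (vertical, CPM of summed counts, linear from 0, a scale of its own for each gene) of 6 secreted signals and of Hba-a1 and Dcn in ML cells, remaining cells with at most 2 B genes and cells with at least 4 B genes; green bars are puberty, orange estrus and violet diestrus, 1 library each, so there are no error bars. Areg was highest in ML cells of puberty, Tnfsf11 and Calca in ML cells of diestrus, and Ptn was at 9459 to 10033 CPM in the ML cells of each library.

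The promoters of Areg, Tnfsf11 and Calca are shown as those of signals whose ML levels differed between stages. That of Foxa1 is shown as that of a transcription factor called higher in ML cells. The sequences are the 250 bases before the transcript start in RefSeq (build GRCm38.p6, from the C57BL/6J strain and not FVB/NJ), 5′ to 3′ on the gene's strand. Capitals mark matches to the motifs searched: the cAMP response element TGACGTCA, the forkhead motif TGTTTAC, the GATA motif AGATAA, the AP-1 motif TGANTCA and the progesterone response element, each on both strands, and the TATA box TATAAA on the gene's strand.
Areg: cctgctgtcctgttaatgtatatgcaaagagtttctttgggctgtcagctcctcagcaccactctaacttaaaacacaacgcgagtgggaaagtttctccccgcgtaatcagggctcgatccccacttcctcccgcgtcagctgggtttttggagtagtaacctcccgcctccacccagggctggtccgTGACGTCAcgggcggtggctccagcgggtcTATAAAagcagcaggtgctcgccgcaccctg
Tnfsf11: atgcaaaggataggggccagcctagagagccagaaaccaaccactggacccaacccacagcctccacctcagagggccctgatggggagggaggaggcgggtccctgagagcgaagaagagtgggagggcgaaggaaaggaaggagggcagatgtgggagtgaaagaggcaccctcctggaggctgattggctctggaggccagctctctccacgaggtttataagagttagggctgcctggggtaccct
Calca: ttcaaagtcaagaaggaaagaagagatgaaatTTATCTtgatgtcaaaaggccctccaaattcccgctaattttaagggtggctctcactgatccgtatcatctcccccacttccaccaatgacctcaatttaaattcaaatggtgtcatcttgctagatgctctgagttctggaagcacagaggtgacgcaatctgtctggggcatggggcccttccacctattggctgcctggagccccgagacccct
Foxa1: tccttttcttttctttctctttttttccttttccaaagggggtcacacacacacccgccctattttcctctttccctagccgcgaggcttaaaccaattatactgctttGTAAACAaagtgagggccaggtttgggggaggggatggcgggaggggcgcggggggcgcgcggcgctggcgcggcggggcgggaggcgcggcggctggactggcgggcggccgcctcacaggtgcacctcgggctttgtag
These lie at chr5:91139349-91139598 (plus strand), chr14:78308044-78308293 (minus strand), chr7:114636358-114636607 (minus strand) and chr12:57546112-57546361 (minus strand). The RefSeq start of Foxa1 used here lies inside the gene as GENCODE places it. The Areg window held a cAMP response element at -61 to -54 from the start and a TATA box at -31 to -26. The Calca window held a GATA motif at -218 to -213 and the Foxa1 window a forkhead motif at -141 to -135, both on the reverse strand. None of the letters searched was in the Tnfsf11 window. Over 32851 mouse promoters of the same length, 1.55% held the cAMP response element, 3.17% the forkhead motif, 9.99% the GATA motif, 6.75% the AP-1 motif, 0.387% the progesterone response element and 7.59% the TATA box. A match is a run of letters and not a measured binding site.

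The receptors for these signals were low in the ML cells themselves. Tnfrsf11a, the receptor RANK, stood at 0.714, 0.243 and 0.299 CPM in puberty, estrus and diestrus, with log2 ratios of -2.88 ± 0.79 to remaining and -3.21 ± 0.64 to basal cells. Egfr, the receptor of amphiregulin, was lower than in both (-2.39 ± 0.40 and -3.57 ± 0.57), whereas Erbb2 and Erbb3 were higher than in basal cells (2.22 ± 0.30 and 3.31 ± 0.42). Adam17, the protease that releases amphiregulin, was level with both (0.34 ± 0.12 and 0.13 ± 0.19). Of 5 calcitonin receptor genes, Ramp1 alone passed the filter and was lower in ML cells, at -2.36 ± 0.60 and -1.33 ± 0.23. Of 6 IGF binding proteins, 3 were lower than in remaining cells and 5 lower than in basal cells, with Igfbp5 at -5.48 ± 0.91 and -4.68 ± 0.68.

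Keratins and junction genes placed ML cells beside the other luminal cells. Krt8 and Krt18, the simple epithelial keratin pair, had ratios to remaining cells of 0.20 ± 0.05 and 0.25 ± 0.20, and to basal cells of 2.62 ± 0.11 and 3.63 ± 0.51. Krt7 was higher than in both (1.82 ± 0.09 and 4.48 ± 0.83), and so was Krt6a, at 92.3 CPM in puberty against 12.6 in estrus and 6.28 in diestrus. Krt19 fell on the border with remaining cells at 1.0 ± 0.08 and was not called. Of 13 junction genes, 10 were higher than in basal cells, with a median log2 ratio of 3.29, and 1 was higher and 1 lower than in remaining cells. Among all genes tested, 8.42% were higher than in basal cells, and 3.64% were higher and 7.2% lower than in remaining cells. The higher one was Cldn6, a claudin of embryonic epithelia (96.9, 72.2 and 109 CPM; 2.51 ± 0.45), and the lower one Cldn1 (-4.13 ± 0.86).

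The surface antigens used to sort mammary cells separated the luminal classes as well. Ly6a, known as Sca1, stood at 715, 587 and 332 CPM (2.05 ± 0.43 to remaining cells), and Prom1, or CD133, at 71.6, 104 and 48.1 CPM (2.10 ± 0.05). Ly6d had a log2 ratio of 2.07 ± 0.16. Kit, the LP receptor tyrosine kinase, was lower (-3.95 ± 0.10), as were Cd55 (-1.82 ± 0.24) and Cd44 (-2.79 ± 0.51). The integrins Itga6 and Itgb1 were lower than in basal cells, at -2.16 ± 0.27 and -1.39 ± 0.17, and had ratios of 0.00 ± 0.46 and 0.12 ± 0.11 to remaining cells.

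**Figure D4:**
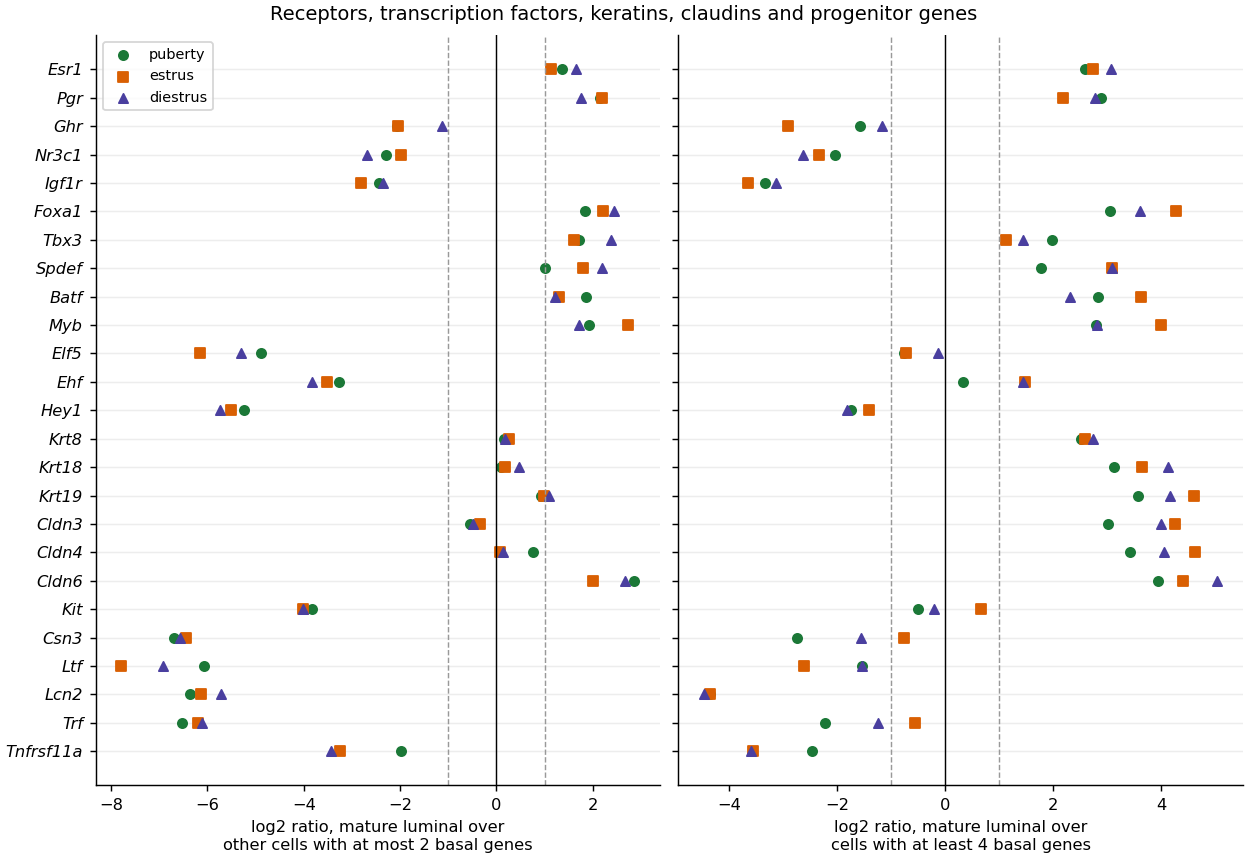
Log2 ratio of ML cells to the remaining cells with at most 2 B genes (left) and to cells with at least 4 B genes (right) for 25 genes; each symbol is 1 library (green circle puberty, orange square estrus, violet triangle diestrus), and dashed lines mark 2-fold. Esr1, Pgr, Foxa1, Tbx3, Batf and Myb lay right of the upper line in each library on both sides, and Krt8, Krt18 and Cldn3 lay between the lines on the left and above 2 on the right.

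The genes of milk and of secreted defence were far lower in ML than in remaining cells. All 8 milk protein genes that passed the filter were called lower, with a median log2 ratio of -6.45. Csn3, κ-casein, stood at 82.5, 61.5 and 24.8 CPM in ML cells against 8613, 5427 and 2463 in remaining cells. Against basal cells 2 of the 8 were lower, Mfge8 at -2.18 ± 0.26 and Xdh at -1.62 ± 0.48. Among 9 defence genes, 5 were lower, including the iron-binding proteins Ltf (-6.93 ± 0.86) and Lcn2 (-6.07 ± 0.33). The protease inhibitors Slpi (2.78 ± 0.51) and Wfdc2 (2.57 ± 0.19) were higher, but Slpi was at 3625, 4821 and 2266 CPM in basal cells, above its 2111, 1439 and 1261 CPM in ML cells.

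Genes of antigen presentation differed from basal cells more than from remaining cells. Of 15 genes, 10 passed the filter, none was called against remaining cells (median 0.78), and 6 were higher than in basal cells (median 1.56). Over all genes tested, 3.64% were called higher than in remaining cells and 8.42% higher than in basal cells. The immunoproteasome subunits Psmb8 and Psmb9 led these, at 2.80 ± 0.50 and 2.92 ± 0.69, followed by H2-Q7 and the transporter Tap2. Reads of the H2 genes may be shared between near-identical copies. The class II chain Cd74 was at 1.83, 0.486 and 1.5 CPM in ML cells. Of 13 Notch pathway genes, 7 passed, and Notch1 (-1.42 ± 0.28) and Hey1 were lower than in remaining cells, while Notch3 had a ratio of 0.21 ± 0.29 to them and was higher than in basal cells (2.54 ± 0.28).

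None of 10 cell cycle genes was called in either contrast. Among all genes tested, 3.64% were called higher and 7.2% lower than in remaining cells, and 8.42% and 11.1% than in basal cells. A gene whose direction changed between libraries could not be called. A cell was taken as cycling when at least 3 of these 10 genes had a count. At 2000 molecules per cell this gave 5.44% of pubertal, 5.20% of estrus and 5.42% of diestrus ML cells, against 4.75%, 2.07% and 8.93% of remaining cells and 7.47%, 3.28% and 14.1% of basal cells. The unthinned ML shares were 8.37%, 7.62% and 9.68%. The ML share thus spanned a narrower range over stages than that of the other classes. Of 7 D cyclins and cell cycle inhibitors that passed the filter, Ccnd2 was lower in ML cells than in both other classes, with 5, 1 and 1 counts in all, and Ccnd1 had a log2 ratio of -0.68 ± 0.49 to remaining cells.

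The genes with the highest ratios outside the rule for ML cells, members of the lists included, were named by a ranking: the 10 genes with the largest smallest-of-3 ratio among those with at least 50 CPM in ML cells of each library. Against remaining cells the first was Fgb, the fibrinogen β chain (1790, 1128 and 428 CPM; 3.15 ± 0.07), ahead of Itih2 (2.88 ± 0.11), Areg and the alarmin cytokine Il33 (2.96 ± 0.25). Crym, a thyroid hormone binding protein (2.85 ± 0.23), the cysteine dioxygenase Cdo1 (2.73 ± 0.24), Pir (2.67 ± 0.17), the collagen-related Cthrc1 (2.59 ± 0.13), R3hdml (2.88 ± 0.49) and the homeobox factor Msx2 (2.53 ± 0.15) completed them. Fgb was detected in 48.1%, 35.0% and 25.7% of ML cells. Against basal cells the same ranking included AW112010 (4.71 ± 0.80), Dnajc12 (4.59 ± 0.70), Fxyd2 (4.25 ± 0.46), Cldn6, Ly6a, Ly6d, Crym, Fgb and R3hdml. The 10 lowest against remaining cells, where a gene had to reach 50 CPM in the remaining cells of each library, were Spp1, osteopontin (-7.03 ± 0.22), Csn3, Apod (-6.82 ± 0.51), Slc28a3 (-6.58 ± 0.38), Chil1 (-6.29 ± 0.21), Trf (-6.28 ± 0.22), Ltf, Cck (-6.13 ± 0.13), Btn1a1 and Csn1s1.

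ML cells also differed among themselves. The variance of the molecule number over its mean, in cells thinned to 2000 molecules, was ranked by its lowest value over the libraries. Outside the rule, Spp1, Fgb and Slpi were highest among 2205 genes, at 12.8, 12.1 and 11.9 against a median of 1.03. These genes and the pairs that follow were chosen after their values were seen. Fgb was found in 64.9% of ML cells with Upk3a and 33.6% of those without in puberty, in 58.3% and 20.8% in estrus, and in 44.2% and 14.0% in diestrus. Dcn, the proteoglycan decorin, went the other way, with 4.52% and 15.8%, 10.1% and 21.4%, and 9.62% and 35.6%. Tph1, the enzyme that starts serotonin synthesis, followed Dcn, with 5.24% and 18.2%, 19.6% and 45.2%, and 17.3% and 36.2%. Upk3a is a gene of the rule, and cells without it had to hold 3 of the other 5 M genes, so these pairs are a description of the chosen cells.

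Ly6d, which the rule did not use, split the cells most in diestrus. Areg was found in 45.5% of diestrus ML cells with Ly6d and 94.7% of those without, against 77.3% and 82.2% in puberty and 33.6% and 43.9% in estrus, where the intervals overlapped in both. Dcn was less frequent with Ly6d in puberty (10.4% against 25.1%) and diestrus (21.6% against 44.4%), and in estrus it was found in 19.2% and 9.76%, where 41 cells lacked Ly6d and the intervals overlapped. The α-globin gene Hba-a1 was found in 16.7% of diestrus ML cells with Ly6d and 59.7% of those without, against 7.31% and 17.1% in puberty and 4.61% and 7.32% in estrus.

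**Figure D5:**
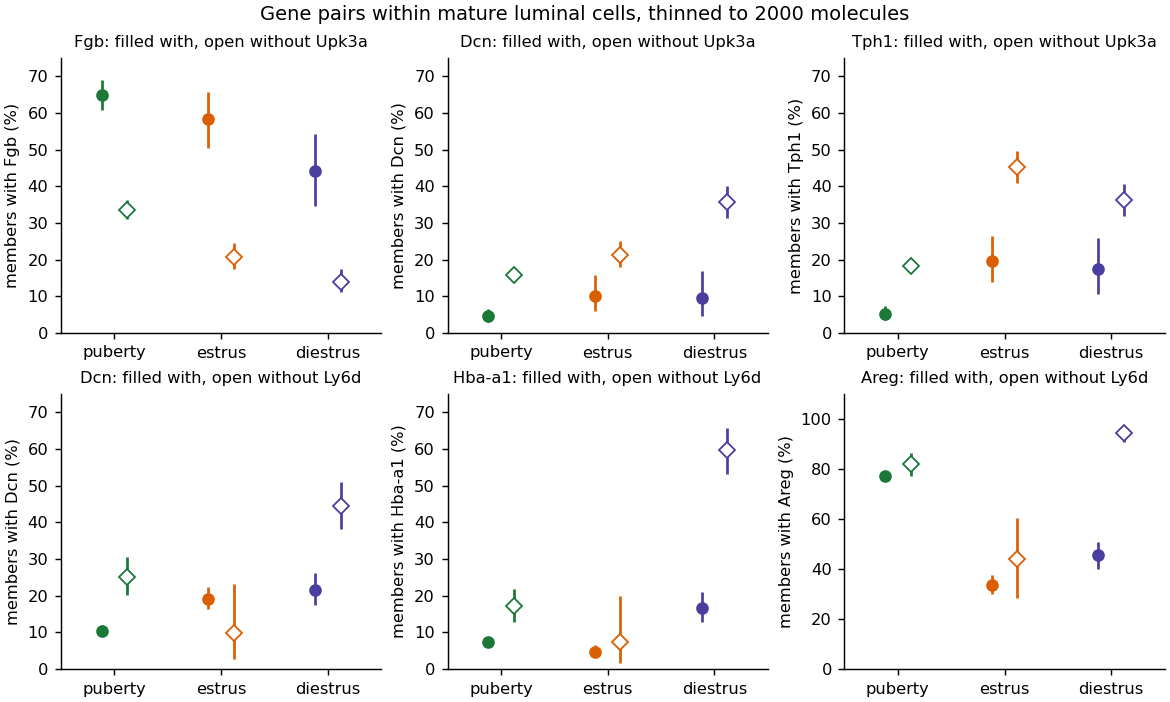
Share of ML cells (vertical, percent) with a count of a gene, split by a second gene, in cells thinned to 2000 molecules; filled circles are cells with and open diamonds cells without Upk3a (upper row) or Ly6d (lower row), bars are exact 95% intervals, and green, orange and violet mark puberty, estrus and diestrus. Fgb was more frequent and Dcn and Tph1 less frequent with Upk3a in each library, and Areg and Hba-a1 differed most by Ly6d in diestrus.

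Hba-a1 and Dcn are otherwise markers of red blood cells and fibroblasts, so their partners were examined in the same cells. Hba-a1 was at 69.8, 20.7 and 519 CPM in ML cells of puberty, estrus and diestrus, in 305, 63 and 288 cells (15.0%, 8.42% and 45.7%). No ML cell had a count of the β-globin Hbb-bs, and Alas2, which makes heme in red cells, had 16, 7 and 4 counts. Hba-a1 and Hba-a2 are near-identical, and reads may be split between them. Dcn was at 377, 215 and 763 CPM in ML cells, with a count in 316 of 2031, 167 of 748 and 235 of 630. It was not particular to them, with a count in 324 of 1171, 293 of 1324 and 373 of 1068 basal cells. Among remaining cells it was found in 70 of 2168, 49 of 642 and 56 of 717. Lum, Col1a1 and Col3a1 had at most 1 count each in ML cells of puberty and estrus, and their 11, 22 and 30 counts in diestrus all came from 1 cell. All 5 fibroblast markers were over 2-fold higher in diestrus than in estrus ML cells, which for Lum, Col1a1 and Col3a1 rests on that cell. Together the 5 markers held 785 CPM in diestrus ML cells, of which Dcn made up 763.

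Stages were compared within ML cells, 1 library each, with a call at 2-fold. Between diestrus and estrus 4.55% of tested genes were higher and 2.33% lower. In puberty 1.93% were higher than in both adult libraries and 0.398% lower. Without TMM the median ratio of all genes moved from -0.03 to -0.19 for diestrus to estrus and from 0.05 to -0.25 for puberty to estrus. Areg and Cxcl15 were the secreted signals at least 2-fold higher in diestrus than in estrus beside Tnfsf11, Calca and Rspo1, which passed the filter on low values through the diestrus library. Rspo1 rested on 9 counts in ML cells. By the ranking the genes highest in diestrus were Calca, Tnfsf11, the β-defensin Defb1 (0 in estrus, 70.9 CPM in diestrus, at least 97.1-fold), Wfdc12 (6.81 and 271 CPM) and the sulfotransferase Sult5a1 (0.973 and 54.7 CPM). Wfdc12 was also at 218 CPM in puberty. Fkbp5, a chaperone induced by steroid hormones, was at 3.89 CPM in estrus and 19.7 in diestrus.

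The genes lowest in diestrus were Gm10116, Tgfb1, Gstp1, Pgk1 and Sft2d1, and they were low in every class of that library. Tgfb1, for example, was at 65.9 CPM in estrus and 4.78 in diestrus in ML cells, at 48.7 and 3.38 in remaining cells, and at 24.4 and 4.32 in basal cells. A difference shared by all classes is not particular to ML cells.

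Highest in ML cells of puberty were Aoc1, a diamine oxidase, at 108 CPM against 0.973 in estrus and 2.69 in diestrus, and the EGF family ligand Epgn, at 67.7 against 0.973 and 2.39. Col6a3 (105 against 4.38 and 8.67 CPM), Krt4 (54.0 against 5.59 and 2.39) and the cornified envelope gene Sprr1a (357 against 41.1 and 45.1) were the next. All 5 were also higher in the remaining and the basal cells of puberty than in those of either adult library, with Aoc1 at 21.1 CPM in remaining and 7.19 in basal cells and Sprr1a at 39.2 and 29.9. The lowest in puberty were F11r, Hprt, Tmem158, Arf6 and Hepacam2. F11r and Hprt were low in all classes of puberty, and Tmem158 was at 279 CPM in ML cells of puberty against 902 and 669 in the adult libraries. Of 11 immediate early and heat shock genes, which respond to cell handling as well as to signals, Fosb alone was over 2-fold lower in puberty than in both adult libraries, at 311, 953 and 698 CPM in ML cells. Fos was at 2464, 5979 and 4612 CPM in ML cells, and at 3263, 8439 and 5371 in remaining cells. The part of these genes in the stage differences was not tested.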

How the data were processed

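Mouse mammary epithelial cells were profiled on the 10x Genomics Chromium platform with 3′ chemistry. The authors made the 4 deposited tables with Cell Ranger 2.0 on the mouse build mm10, and the deposited values are raw molecule counts per gene and barcode. All 27998 genes and all deposited barcodes were used, and no doublet caller was run. The lowest total of a barcode was 1339 counts. The first pubertal table was used, since the second held the same cells.

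Counts were summed over the cells of 3 classes in 3 libraries, which gave 9 sums. They were scaled with TMM from edgeR 4.0.16 in R 4.3.3, without a model fit, since each stage had 1 library. Genes outside the 18 of the rule with a mean of at least 5 CPM over the 9 sums were tested, with a pseudocount of 1 CPM, so that ratios of low genes are understated. Cells were classed anew after thinning where shares of ML cells are given as thinned, and kept their class where genes are. Shares have exact 95% intervals (scipy 1.17.1). The ratio step was checked on simulated counts with known changes. Named genes were those of the rule, of gene lists and of the ranking stated in the text. Not every gene of that ranking is reported here. Stage genes were the 5 highest and 5 lowest in each comparison among those with at least 50 CPM in a compared library. The rule, the members and the lists were chosen with earlier results of these data known. Gene positions came from GENCODE M21, in which 27645 gene IDs were found, and promoter sequences from RefSeq. Alternatives were other rule limits, thinning, quality limits, other scaling, pseudocounts and filters, and leaving out a library.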

Additional observations from a re-analysis of the deposited data

Results flagged for a closer look

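Ccna2 and Hba-a1 moved in opposite directions in different libraries when ML cells were compared with the remaining cells with at most 2 basal genes. For Ccna2, a cyclin of S phase and mitosis, the log2 ratio was -0.34 in puberty, 1.08 in estrus and -1.19 in diestrus. For Hba-a1, the α-globin gene, it was 2.65 in puberty, -2.91 in estrus and 3.09 in diestrus. In the estrus library 446 of the 465 Hba-a1 counts of the remaining cells came from 1 cell. Without the 2 remaining cells that held Hbb-bs, the estrus ratio of Hba-a1 was 1.88, in the direction of the other libraries. That alternative was chosen after seeing the data. Each value rests on 1 library, and the difference between libraries was not tested.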

How the results depend on the processing

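Classes were compared within each library. Stages could not be paired or compared with replicates, because only puberty had more than 1 labelled replicate, and both hold the same cells. Of 2185 log2 ratios of named genes under an alternative whose main value was at least 1 in size, 2180 kept their direction. Named genes include the M, L and B genes of the rule and genes ranked by their ratio. The direction of their ratios follows largely from how the cells or genes were chosen. The count of kept directions is therefore no independent support, and it was not taken without these genes. The share of ML cells was 37.4% in puberty, 27.4% in estrus and 25.8% in diestrus. It was 29.3%, 22.1% and 20.7% with at least 4 M genes, 27.3%, 19.2% and 15.5% with no L and no B gene, 45.2%, 32.7% and 28.7% when cells had to hold 1000 genes and stay below 10% mitochondrial counts, and 33.6%, 25.4% and 23.1% when chosen on a random part of the molecules and read on the rest. With at least 2 M genes it was 39.6% in puberty and 27.7% in diestrus, without cells of high totals 39.2% and 27.8%, after thinning 30.5% in estrus, and 36.0% with the second set of pubertal counts. Counts of called genes followed the filter on low values, which also sets how many genes are tested. That was 9046 genes in the text, 5022 with a mean of at least 20 CPM and 17536 with no filter. With a mean of at least 20 CPM, 181 genes were higher and 347 lower than in remaining cells (329 and 651 in the text), 411 and 494 than in basal cells (762 and 1001), 255 higher and 76 lower in diestrus than in estrus (412 and 211), and 96 higher and 16 lower in puberty (175 and 36). With no filter, 1596 were lower than in basal cells, 626 higher and 455 lower in diestrus, and 265 higher and 56 lower in puberty. With 5 CPM added, stage counts were 241, 96, 107 and 14 in that order. Without TMM, 337 were lower in diestrus, 96 higher and 94 lower in puberty. Genes lower in diestrus were 335 under the rule without L and B genes, 440 after thinning and 335 on the random part, and genes lower in puberty were 63 in the second table, 89 after thinning and 70 on the random part. The cause was not tested. Leaving out 1 library gave 372 to 427 genes higher and 725 to 792 lower than in remaining cells, and 856 to 902 and 1066 to 1161 than in basal cells. Hba-a1 in estrus had a log2 ratio to remaining cells of -2.91, and of 1.88 without the 2 cells that held Hbb-bs, an alternative chosen after seeing the data. Ratios of Il6, Ramp2 and Igfbp6, which were not called, changed sign and that of Emcn came to 0 when cells with at least 3 immune, endothelial or fibroblast genes were left out.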
